A study of Mus musculus with 6 samples.

Results

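The genes described here encode 10 proteins of the connective tissue matrix, taken by symbol from the 23420 genes of the count table, where all 10 were found and all 10 passed the filter on low counts. They are the small leucine-rich proteoglycans decorin (Dcn), biglycan (Bgn), lumican (Lum), fibromodulin (Fmod), prolargin (Prelp) and osteoglycin (Ogn), and the matrix proteins periostin (Postn), matrix Gla protein (Mgp), fibulin 1 (Fbln1) and fibrillin 1 (Fbn1). Polyadenylated RNA was sequenced from kidneys of mouse embryos at embryonic day 18.5, from crosses of wild-type females with males heterozygous for a Six2-GFP transgene. Both groups came from transgenic kidneys dissociated with trypsin and sorted by fluorescence, as GFP-positive cells (Six2-high, 3 libraries) and GFP-negative cells (Six2-low, 3 libraries), with a gate set on non-transgenic kidneys. Transgenic and non-transgenic kidneys were kept apart, and the sort was carried out in 3 experiments. The labels do not say outright whether kidneys of several embryos were pooled for a sort. The column names carry the preparation tag 14_6_TRI for replicate 1 of each group, 17_7_Norgen for replicate 2 and 17_7_TRI for replicate 3. The tags read like a date and an RNA kit, which the column names do not spell out. They do not say whether replicates 2 and 3 share a litter, so the spread behind the p-values may in part be technical.

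Small leucine-rich proteoglycans are secreted proteins built from leucine-rich repeats that bind collagen fibrils and set their diameter and spacing, and several of them carry dermatan, chondroitin or keratan sulfate chains. Fibrillins polymerise into microfibrils, on which elastin is laid down and latent TGF-beta is stored, and fibulins bind both. In the fetal kidney such matrix is made chiefly by the interstitial stroma that surrounds nephrons and ducts, whereas Six2-positive cells form the cap mesenchyme, the nephron progenitor tissue. The Six2-low fraction holds every other cell type of the kidney, stroma among them. In bulk RNA of this kind, fewer cells of a type and less RNA per cell cannot be told apart.

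Total counts ran from 23535399 to 29791421 per library. Six2, whose regulatory sequence drives the sorting marker, averaged 1224 ± 332 CPM (counts scaled to a common library size; SD, n = 3) in the Six2-high libraries and 15.2 ± 7.05 CPM in the Six2-low ones. Of 14 stromal marker genes, 12 were lower in Six2-high, as were 28.7% of all tested genes, and the stromal progenitor gene Foxd1 was higher, at 107 ± 52.1 against 42.5 ± 20.8 CPM (adjusted p = 0.046, or 2.5e-05 with the replicate block, which removes differences that both libraries of a preparation share). The summed level of the stromal markers was 704 to 723 CPM in Six2-high and 3894 to 4679 CPM in Six2-low. Rn45s, the precursor of ribosomal RNA, made up 9.59% of the total in Six2-high replicate 3 and at most 0.676% elsewhere. Foxd1 overlapped between fractions.

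The sequences before the start sites are shown because all 10 genes were lower in 1 fraction. A promoter sequence was matched for 7 of the 10 genes by symbol, from RefSeq on GRCm38.p6, and the 250 bases before the start were read. Dcn, Lum and Mgp had no entry in that table. The windows below belong to Postn and Ogn, which are among the genes with the largest differences, and to Fbln1, which differed far less. Prelp, which differed most, was matched too and is not shown, nor are Bgn and Fmod. They are written 5′ to 3′ on the plus strand, which is the strand of each of the 3 genes, at chr3:54360857-54361106, chr13:49607765-49608014 and chr15:85205699-85205948. Capitals mark CG dinucleotides and the TATA box letters TATAAA or their reverse complement TTTATA.
Postn: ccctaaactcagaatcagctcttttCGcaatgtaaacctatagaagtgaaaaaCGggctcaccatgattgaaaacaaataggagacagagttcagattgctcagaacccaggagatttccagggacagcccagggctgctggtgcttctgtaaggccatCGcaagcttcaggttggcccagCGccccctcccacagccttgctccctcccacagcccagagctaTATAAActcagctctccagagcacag
Ogn: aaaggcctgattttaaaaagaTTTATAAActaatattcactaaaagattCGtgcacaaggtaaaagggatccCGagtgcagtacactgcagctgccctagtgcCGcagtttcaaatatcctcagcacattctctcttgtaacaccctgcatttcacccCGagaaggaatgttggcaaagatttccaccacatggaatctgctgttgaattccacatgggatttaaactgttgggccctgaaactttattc
Fbln1: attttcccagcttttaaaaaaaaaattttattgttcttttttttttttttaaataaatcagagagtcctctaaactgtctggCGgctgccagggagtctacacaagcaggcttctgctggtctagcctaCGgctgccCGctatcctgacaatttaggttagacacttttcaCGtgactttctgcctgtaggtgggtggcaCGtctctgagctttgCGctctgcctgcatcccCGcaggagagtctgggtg

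In Postn the letters TATAAA stand 26 to 21 bases before the start. In Ogn the same letters stand farther out, 227 to 222 bases before the start, and overlap a match on the other strand. No other matched window of the 7 held TATAAA on either strand, while 12.4% of 32851 mouse promoter windows of this length do. The windows without it include Prelp, with the largest log2 fold change of the 10 (-4.89), Fmod (-3.74) and Bgn (-3.34). The CG dinucleotide occurred 4 times in both Postn and Ogn, 2 times in Fmod, 5 in Prelp and 7 in both Bgn and Fbln1, with a median of 6 over all windows. Fbn1 had 13, in a window that lies within the first exon of a longer annotated transcript and is not shown. The letters GGAATG or their reverse complement CATTCC, the core of the sites bound by TEAD factors, were found in the Ogn window alone of the 7, 86 to 81 bases before the start, and in 12.6% of all windows. The letters CCAAT or their reverse complement ATTGG were found in the Prelp window alone, and in 33.8% of all windows. A match of letters is a description and shows no binding.

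Every one of the 10 matrix genes was lower in Six2-high than in Six2-low (edgeR quasi-likelihood test, adjusted p under 0.05 over 15347 genes), where 28.7% of all tested genes were lower by that rule. The members and the lists below were chosen with earlier results of these data known, so such counts describe them and are no independent evidence. The 3 Six2-high libraries lay below the 3 Six2-low libraries for all 10 genes, which held for 32% of all tested genes. The median log2 fold change of the 10 was -3.74, against 0.046 over all tested genes. Of the 10, 7 had a log2 fold change under -3, as did 10.2% of all tested genes. All 10 were also lower with the replicate block (33% of all genes) and by DESeq2 (27.9%), and 8 were lower by more than 2-fold in a test against that threshold (17.3%). The genes differed in how much RNA was found in Six2-high. The 6 proteoglycans and periostin were there at 3.20% to 9.82% of their Six2-low level, Mgp at 30.2%, Fbln1 at 37.6% and Fbn1 at 59.0%. Their summed level was 222 to 269 CPM in Six2-high and 1012 to 1028 CPM in Six2-low.

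**Figure D1:**
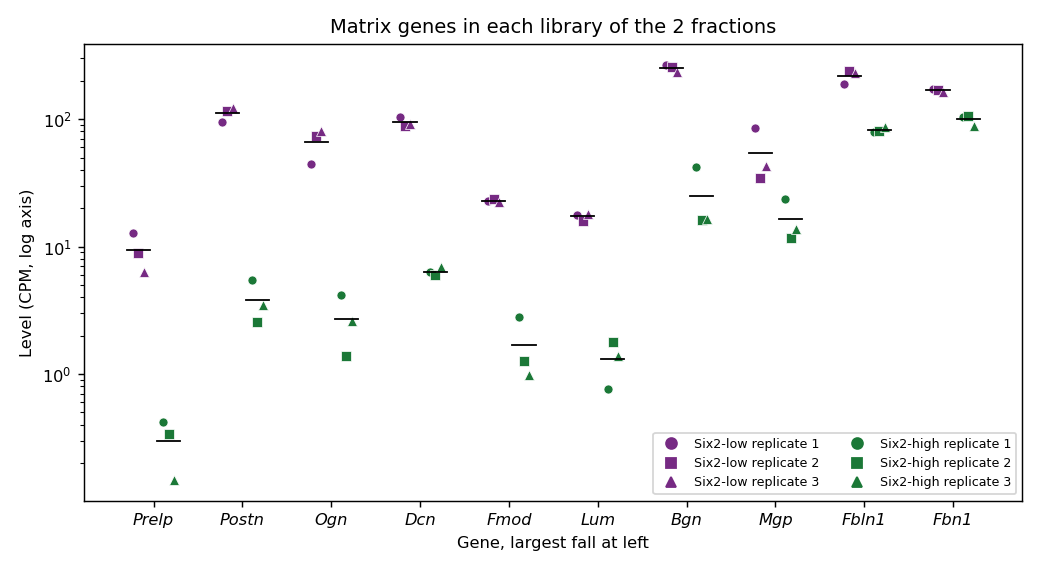
Level of the 10 matrix genes in each library, in CPM on a log axis, with Six2-low in purple, Six2-high in green, a symbol for each replicate and a black line at the mean of 3 libraries. The fractions do not overlap for any gene, and the gap narrows from Prelp at the left (3.20% of the Six2-low level) to Fbn1 at the right (59.0%).

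Decorin, the proteoglycan that binds collagen type I fibrils and sequesters TGF-beta, gave the smallest p of the 10. Dcn (chromosome 10, 97479609 to 97518143, plus strand, build mm10 in the GENCODE M21 annotation, as for the other genes) was at 6.29, 5.95 and 6.87 CPM in Six2-high replicates 1 to 3 and at 104, 88.1 and 92.2 CPM in Six2-low. Both fractions were even across preparations, and the log2 fold change was -3.90 (SE 0.13, edgeR adjusted p = 4.7e-07).

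Biglycan, the X-linked close relative of decorin, was the most abundant of the genes in Six2-low by CPM. Bgn (chromosome X, 73483602 to 73495933) stood at 267, 258 and 235 CPM in Six2-low and at 42.0, 16.1 and 16.5 CPM in Six2-high. Six2-high replicate 1 was thus well above the other libraries of its fraction, though far below any Six2-low library. The log2 fold change was -3.34 (SE 0.36, adjusted p = 9.8e-05), and -3.97 without Six2-high replicate 1.

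Lumican, fibromodulin and prolargin are proteoglycans of a class that can carry keratan sulfate. Lum (chromosome 10, 97565128 to 97572703) was at 0.765, 1.77 and 1.37 CPM in Six2-high and at 17.8, 15.9 and 18.1 CPM in Six2-low, so replicate 1 was the lowest Six2-high library here (log2 fold change -3.74, SE 0.29, adjusted p = 1.3e-05). Fmod (chromosome 1, 134037254 to 134048277) was at 2.78, 1.27 and 0.982 CPM in Six2-high, highest in replicate 1, and at 22.9, 23.8 and 22.2 CPM in Six2-low. Its log2 fold change was -3.74 (SE 0.34, adjusted p = 3.5e-05), and -4.36 without Six2-high replicate 1. Prelp, whose protein anchors matrix to basement membranes (chromosome 1, 133910304 to 133921414, minus strand), had only 12, 8 and 3 counts in the Six2-high libraries, against 347, 230 and 197 in Six2-low. Its levels in Six2-low, 12.8, 8.97 and 6.36 CPM, were the lowest of the 10 genes, and its log2 fold change of -4.89 (SE 0.42, adjusted p = 2.4e-05) was the largest in size of the 10.

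Osteoglycin, also called mimecan, was uneven across preparations in both fractions and in opposite directions. Ogn (chromosome 13, 49608046 to 49624501) was at 44.8, 73.8 and 80.5 CPM in Six2-low, lowest in replicate 1, and at 4.14, 1.39 and 2.60 CPM in Six2-high, highest in replicate 1. By preparation its log2 difference was -3.44, -5.73 and -4.95, and the log2 fold change over all libraries was -4.59 (SE 0.39, adjusted p = 2.2e-05). Leaving out the first preparation gave -5.33. Periostin, which binds integrins and collagen and is made by mesenchyme and activated fibroblasts, had the same shape. Postn (chromosome 3, 54361109 to 54391037) was at 95.4, 116 and 121 CPM in Six2-low and at 5.42, 2.57 and 3.49 CPM in Six2-high. The log2 difference was smallest in size in preparation 1 (-4.14) and -5.49 and -5.12 in the others (log2 fold change -4.84, SE 0.26, adjusted p = 2.5e-06).

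In Six2-high replicate 1, which stood highest in its fraction for Bgn, Fmod, Ogn, Postn, Prelp and Mgp, some marker sums of other cell types also stood highest and others did not. The summed podocyte and early nephron markers (6 genes, 5 of them lower in Six2-high and none at 0 there) were at 273 CPM there and at 113 and 90.2 CPM in the other Six2-high libraries, against 935 to 1021 CPM in Six2-low. The summed smooth muscle and pericyte markers (7 genes, 6 lower, and Ren1 with no counts in any library) were at 98.5 against 59.4 and 49.99 CPM, and at 469 to 478 CPM in Six2-low. The summed endothelial markers were at 5.94 against 3.46 and 4.03 CPM. The summed ureteric bud and collecting duct markers were not highest in replicate 1, at 56.0 CPM against 59.1 and 51.8, nor were the macrophage markers, at 1.56 against 1.31 and 1.72 CPM. The summed stromal markers were level, at 709 CPM in replicate 1 and 704 and 723 CPM in the others. The summed cap mesenchyme markers (8 genes, all higher in Six2-high) were lowest in replicate 1, at 1866 CPM against 3031 and 2838. Their part in the levels of the matrix genes was not tested.

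Matrix Gla protein, a vitamin K-dependent inhibitor of calcification that also binds BMPs, varied most in Six2-low. Mgp (chromosome 6, 136872435 to 136875823, minus strand) was at 85.3, 34.7 and 42.9 CPM in Six2-low and at 23.8, 11.6 and 13.8 CPM in Six2-high, so replicate 1 was the highest library of both fractions. The log2 difference within preparations was much steadier than the levels, at -1.84, -1.58 and -1.64. The log2 fold change was -1.72 (SE 0.38, adjusted p = 0.0054), and with the replicate block the SE fell to 0.089. Against a threshold of a 2-fold change Mgp did not pass (adjusted p = 0.063). The summed endothelial markers (6 genes, 6 of 6 lower in Six2-high, none at 0) were also highest in replicate 1 of Six2-low, at 937 CPM against 569 and 569. They were at 3.46 to 5.94 CPM in Six2-high. In Six2-low replicate 1 was highest too for the macrophage sum (139 against 110 and 110 CPM) and the cap mesenchyme sum (103 against 87.2 and 85.6 CPM). It was not highest for the stromal, podocyte and early nephron, or ureteric bud and collecting duct sums. Nor was it for smooth muscle and pericyte markers, at 469 against 476 and 478 CPM. The part of any of these cell types in the level of Mgp was not tested.

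The 2 genes of microfibrils and elastic fibres were the least different of the 10. Fbln1, whose protein binds fibronectin, fibrillin and basement membranes (chromosome 15, 85205949 to 85286535), was at 79.3, 80.5 and 87.3 CPM in Six2-high and at 189, 239 and 229 CPM in Six2-low. The log2 fold change was -1.41 (SE 0.12, adjusted p = 2.5e-05). Fbn1 (chromosome 2, 125300594 to 125507993, minus strand) was at 104, 106 and 89.1 CPM in Six2-high and at 173, 170 and 164 CPM in Six2-low. Its log2 fold change was -0.76 (SE 0.11, adjusted p = 0.00046). Neither gene overlapped between fractions, but Fbn1 did not pass against a threshold of a 2-fold change (adjusted p = 1.00). In Six2-high these 2 were the most abundant of the 10 genes by CPM.

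Dividing each gene by Dcn in the same library removes the scaling between libraries. The Fbn1 count was 16.5, 17.8 and 12.96 times that of Dcn in Six2-high and 1.66, 1.93 and 1.78 times in Six2-low. For Fbln1 the ratio was 12.6, 13.5 and 12.7 against 1.82, 2.71 and 2.48, and for Mgp 3.78, 1.95 and 2.01 against 0.818, 0.394 and 0.466. The ratio of these 3 genes was higher in Six2-high in every preparation. For Prelp and Postn it was lower in every preparation. For Postn the ratio was 0.862, 0.433 and 0.507 in Six2-high and 0.915, 1.31 and 1.32 in Six2-low. These 5 separated the fractions completely, with p = 0.10 each in a two-sided exact permutation test over the 6 libraries, which is the smallest p that 3 against 3 allows, and an adjusted p of 0.18 over the 9 ratios compared. The ratios of Lum, Ogn, Bgn and Fmod to Dcn overlapped between fractions (exact p = 0.70, 0.20, 0.80 and 0.90). With 3 against 3 this test could not reach 0.05 for any ratio and it does not use the pairing by preparation, so these p-values do not show that the ratios were alike.

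**Figure D2:**
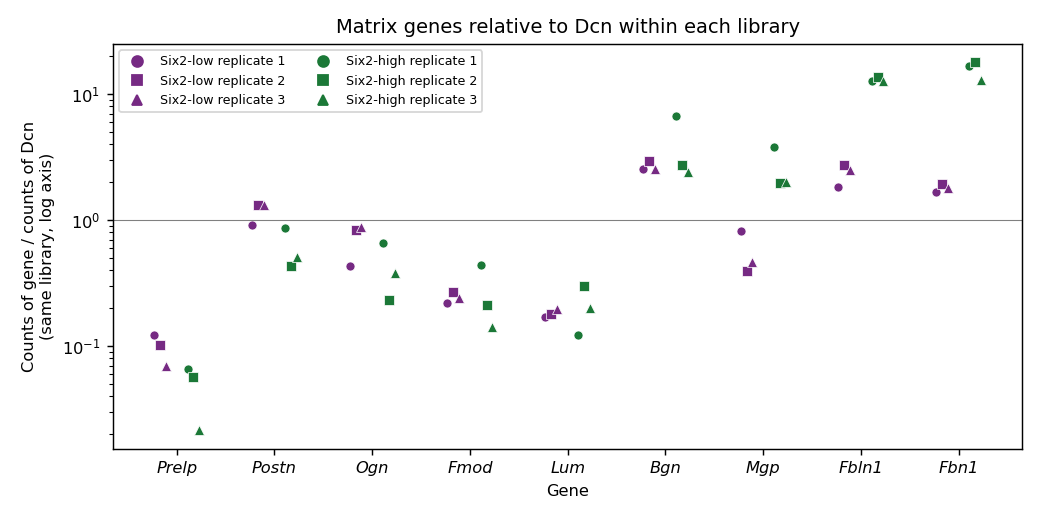
Counts of each gene divided by the counts of Dcn in the same library, on a log axis, with Six2-low in purple and Six2-high in green, a symbol for each replicate and a grey line at equal counts. Fbn1, Fbln1 and Mgp lie higher relative to Dcn in Six2-high (Fbn1 at 1.66 to 1.93 in Six2-low against 12.96 to 17.8), Prelp and Postn lie lower, and the other 4 overlap.

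Levels were compared between genes per kilobase of merged exon. In Six2-low the order of these per-length levels was Fbln1 (50.2 ± 6.0 CPM per kilobase, SD, n = 3), Mgp (45.8 ± 22.9), Bgn (41.6 ± 2.73), Ogn (25.9 ± 7.39), Dcn (16.2 ± 1.44), Fbn1 (13.9 ± 0.352), Postn (12.7 ± 1.57), Lum (7.04 ± 0.491), Fmod (6.95 ± 0.247) and Prelp (2.60 ± 0.903). Neighbours in this order overlapped between libraries except at 4 steps, Bgn over Ogn, Dcn over Fbn1, Postn over Lum and Fmod over Prelp. With the longest annotated transcript as the length, Bgn came first at 95.1 CPM per kilobase, before Mgp at 76.0 and Fbln1 at 59.9. Postn, at 21.2 CPM per kilobase, then came before Dcn (20.2) and Fbn1 (14.1). The order, at the top and below it, thus depends on which exons are counted. In Six2-high the order on merged exons began with Fbln1 (18.9 ± 0.990), Mgp (13.8 ± 5.48) and Fbn1 (8.22 ± 0.764), and Prelp was again last (0.083 ± 0.038).

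Of the 6 proteoglycans, 5 lie in family clusters on 3 chromosomes, and the annotated relatives beside them were read as well. On chromosome 13, Ogn is preceded on the same strand by Ecm2, Aspn (asporin) and Omd (osteomodulin). Aspn was at 1.39, 0.295 and 0.442 CPM in Six2-high and at 24.1, 17.8 and 19.2 CPM in Six2-low (log2 fold change -4.77, SE 0.46, adjusted p = 4.5e-05). It shares exon bases with Cenpp on the other strand, whose own log2 fold change was 0.28 (SE 0.22, adjusted p = 0.31). The sources used here do not give whether counting used strand. Ecm2 was at 0.417, 0.127 and 0.295 CPM in Six2-high and at 8.96, 4.56 and 5.39 CPM in Six2-low (log2 fold change -4.44, SE 0.45, adjusted p = 6.4e-05). Omd, between Aspn and Ogn, differed less, at 0.487, 0.801 and 0.933 against 1.59, 1.05 and 2.16 CPM (-1.13, SE 0.39, adjusted p = 0.040, or 0.030 with the replicate block), and it did not pass when any 1 library other than Six2-low replicate 2 was left out (adjusted p from 0.053 to 0.17). Nol8, the next gene after Ogn, was at a log2 fold change of 0.39 (SE 0.26, adjusted p = 0.24, or 0.0497 with the replicate block).

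On chromosome 10, Lum starts 46984 bases after the end of Dcn, and the relatives Kera (keratocan) and Epyc (epiphycan) follow. Kera had 0 counts in the 3 Six2-high libraries and 4, 6 and 2 counts in Six2-low, and Epyc had 1 count in all 6 libraries together. Neither passed the filter on low counts, so of this cluster only Dcn and Lum could be tested. The gene before Dcn, the antiproliferative gene Btg1, went the other way, with a log2 fold change of 0.72 (SE 0.13, adjusted p = 0.0022). On chromosome 1, Prelp lies 2304 bases from Optc (opticin), which had 2 to 11 counts per library and was not tested, and Fmod follows 115839 bases after Prelp. The flanking genes Atp2b4 (0.26, SE 0.16, adjusted p = 0.21) and Btg2 (0.74, SE 0.57, adjusted p = 0.31) were not called. With the replicate block Btg2 was higher (0.70, adjusted p = 0.00021).

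**Figure D3:**
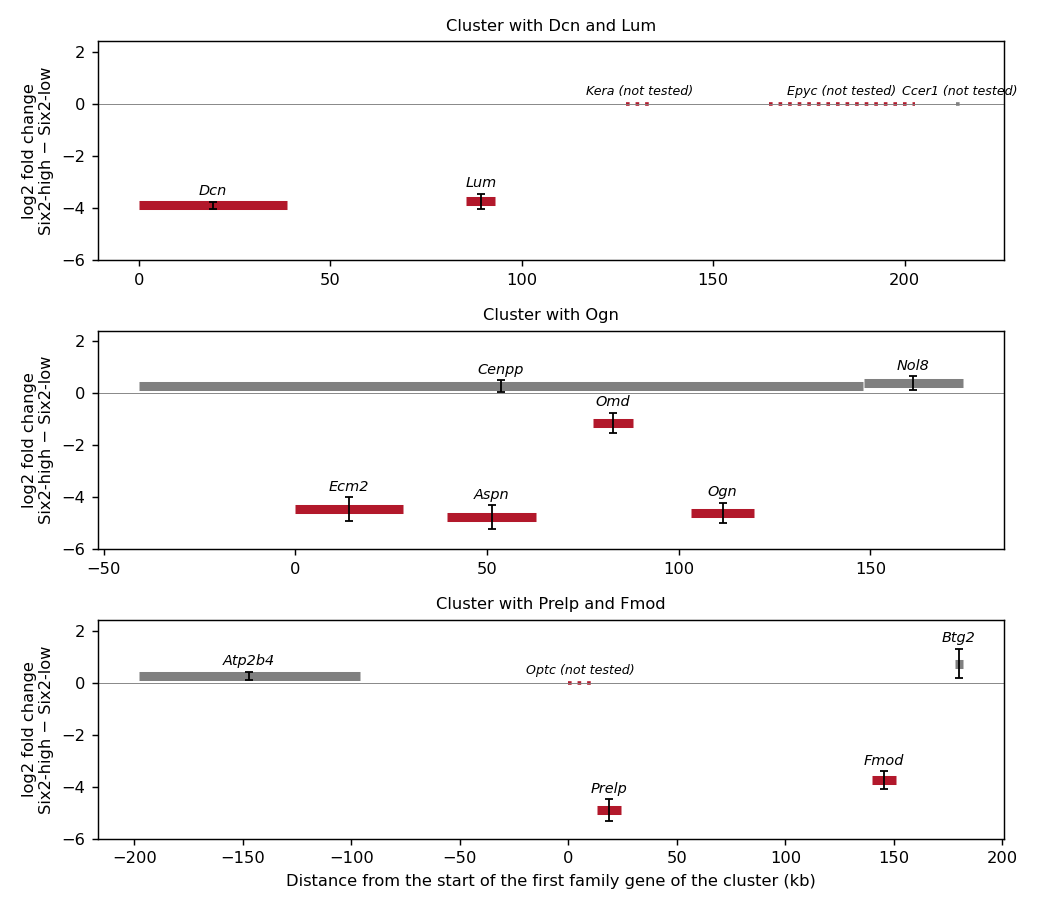
Genes of the 3 proteoglycan clusters along their chromosomes, as distance in kilobases from the start of the first family gene, against the log2 fold change (Six2-high minus Six2-low) with its SE as a black bar. Family genes are red and neighbours grey, dotted genes were not tested and are drawn at 0, and Btg1, which lies far to the left of Dcn, is left out. Tested family genes lie between -1.13 (Omd) and -4.89 (Prelp), and the tested grey neighbours lie above 0. Ccer1, the grey neighbour drawn in the cluster of Dcn and Lum, had no counts and was not tested.

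Among the further relatives of the proteoglycans, 6 of 12 passed the filter, 5 were lower (28.7% of all tested genes were), none was higher (21.4%), and Tsku was not called (log2 fold change 0.22, adjusted p = 0.25). The median of the 6 was -2.82. Besides Aspn and Ecm2, Chadl was the third with the smallest p, at 2.89, 3.21 and 3.54 CPM in Six2-high and 11.1, 12.0 and 11.9 CPM in Six2-low (-1.86, SE 0.18, adjusted p = 4.6e-05), and it shares exon bases with L3mbtl2, which was not called. Tsku stood at 21.05 ± 1.22 CPM in Six2-high against 18.1 ± 2.50 CPM.

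The other microfibril and elastic fibre genes included lower and higher members. Of 22 tested genes, 11 were lower, 7 were higher and 4 were not called, with a median log2 fold change of -0.42, where 28.7% of all tested genes were lower and 21.4% higher. Against a 2-fold change 10 were lower and 2 higher, where 17.3% of all tested genes were lower and 3.56% higher. With the replicate block 12 were lower and 8 higher, where 33% of all tested genes were lower and 31.7% higher, so the higher share was then near that of all genes. The 3 with the smallest p were Emilin1, an elastic fibre glycoprotein with a mean of 39.0 ± 3.16 CPM in the Six2-high libraries against 319 ± 25.03 (a difference of -3.03 in log2, SE 0.12, adjusted p = 6.7e-07), Mfap5, a microfibril-associated protein at 0.553 ± 0.094 against 16.3 ± 3.79 CPM (-4.85, SE 0.28), and Lox, the enzyme that crosslinks collagen and elastin, at 4.71 ± 0.477 against 75.8 ± 20.5 CPM (-4.0, SE 0.23). The higher genes were Fbn2, Fbln7, Hmcn1, Mfap2, Mfap4, Ltbp1 and Tgfbi, of which Mfap4 shares exon bases with Mapk7 and is uncertain. Fbn2, the second fibrillin, was chosen after its values were seen because it is the closest relative of Fbn1. It was at 460, 574 and 466 CPM in Six2-high and at 224, 196 and 182 CPM in Six2-low (log2 fold change 1.32, SE 0.14, adjusted p = 7.1e-05), so the fibrillins differed in opposite directions. Tgfbi, the relative of Postn and chosen in the same way, was at 1268 ± 327 against 167 ± 2.71 CPM (2.92, SE 0.20, adjusted p = 7.4e-06), opposite to Postn.

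**Figure D4:**
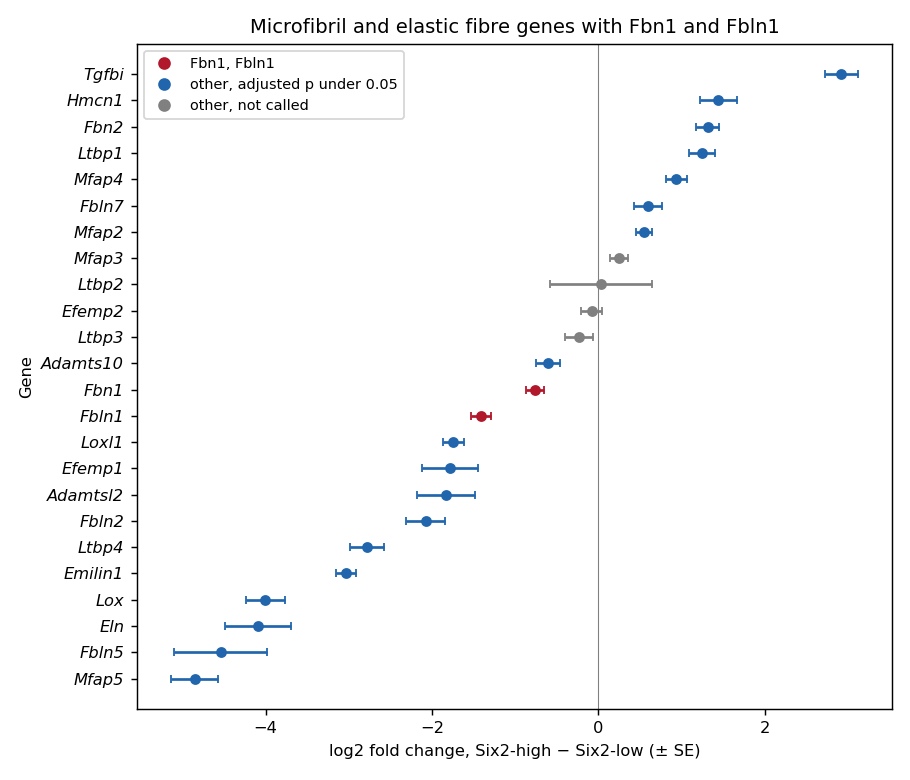
Log2 fold change (Six2-high minus Six2-low, with SE bars, 3 libraries per fraction) of 22 microfibril and elastic fibre genes and of Fbn1 and Fbln1 (red). Blue genes had an adjusted p under 0.05 and grey genes did not. The list spans -4.85 (Mfap5) to 2.92 (Tgfbi), and Fbn2 at 1.32 lies on the other side of 0 from Fbn1 at -0.76.

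Enzymes that build the sugar chains of the proteoglycans, or that carboxylate Gla proteins, were read as a list of their own. Of 30 tested genes 12 were lower, 6 higher and 12 not called, with a median log2 fold change of -0.22, where 28.7% of all tested genes were lower and 21.4% higher. The higher share is close to that of all genes. With the replicate block 15 were lower and 6 higher, against 33% and 31.7% of all genes. Csgalnact1, which starts chondroitin sulfate chains, was at 0.348, 0.211 and 0.442 CPM in Six2-high and 9.07, 7.53 and 7.20 CPM in Six2-low (-4.56, SE 0.31, adjusted p = 6.5e-06). Ust, which sulfates uronic acid of chondroitin and dermatan sulfate, was higher, at 49.8 ± 4.33 against 9.85 ± 0.855 CPM (2.34, SE 0.14, adjusted p = 3.1e-06), as was the sulfotransferase gene Chst5, at 8.54 ± 1.24 against 0.314 ± 0.115 CPM (4.75, SE 0.31, adjusted p = 6.1e-06). Ggcx, the carboxylase that acts on Mgp, was at 29.7 ± 5.55 against 27.4 ± 0.613 CPM and was not called (adjusted p = 0.55).

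Of the stromal markers, Pdgfra and Col3a1 were in Six2-high at 3.50% and 3.03% of their Six2-low level, and Col1a1 and Pdgfrb at 8.80% and 10.7%. Their part in the levels of the matrix genes was not tested. Endothelial and macrophage markers were lower still, with median log2 fold changes of -7.56 and -6.24 over 6 and 5 genes, against -3.36 over the 14 stromal markers. The genes nearest to the mean profile of the 10 matrix genes, by Euclidean distance of centred log2 CPM over the 6 libraries, were the actin-binding gene Tagln2 (distance 0.204), the septin gene Sept4 (0.237), the PDGF receptor gene Pdgfrb (0.260), Hoga1 (0.260, uncertain because it shares exon bases with 4933411K16Rik) and the phospholipase gene Plcg2 (0.270), out of 10227 candidates. Their log2 fold changes lay between -3.18 and -3.32, less negative than the median of the 10 (-3.74) and between Bgn (-3.34) and Mgp (-1.72). The distances of the 10 themselves ran from 0.733 (Bgn) to 3.13 (Fbn1). With 6 libraries in 2 fractions this measure rests mainly on the difference between fractions.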

How the data were processed

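Per the submitters' processing notes, the tools were TopHat2 2.1.0, TopHat, SAMtools, HTSeq 0.6.1p1 and DESeq2 with build mm10; the sources used here give neither their roles nor the annotation or strand setting. The authors deposited raw counts per gene symbol for 6 libraries, and a scaled version that was not used here. Of 23420 genes, 3662 had no counts.

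Tests on the counts used edgeR 4.0.16 (R 4.3.3): filterByExpr (15347 genes kept), TMM scaling, and a two-sided quasi-likelihood F test of Six2-high minus Six2-low without a block, with Benjamini-Hochberg adjustment over all tested genes and a threshold of 0.05. CPM uses the TMM-scaled library size. The members and lists were chosen with earlier results of these data known. The named genes were the 10 members, their relatives in the same chromosome cluster, per companion list the 3 genes of smallest p, 6 markers, and the 5 nearest profiles with a mean of at least 10 CPM, without predicted genes; flanking genes were added by position, and Fbn2, Tgfbi, Tsku and Ggcx were chosen after their values were seen. Adgre1 was read under its older symbol Emr1. Gene positions and lengths are from GENCODE M21. The fit was also run on counts simulated from its own dispersions. These held no difference between preparations, so that run cannot show how the fit handles one. Alternatives were the replicate block, RLE and upper-quartile factors, DESeq2 1.42.0, no filter, a 2-fold threshold, leaving out each library or each preparation, and the longest transcript as length.

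The preparation tags pair the libraries: deviations from the fraction means correlated across genes at 0.37, 0.42 and 0.33 within preparations 1 to 3.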

Additional observations from a re-analysis of the deposited data

How the results depend on the processing

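Each of the 10 matrix genes was refitted under 15 alternatives. All 150 fold changes kept their direction and 148 kept their call. The exceptions were Mgp (log2 fold change -1.72, adjusted p = 0.063) and Fbn1 (-0.76, adjusted p = 1.00) against a 2-fold change, a stricter test that 8 of the 10 passed. In the other 14 alternatives the largest adjusted p was 0.048, for Mgp without both libraries of replicate 3, which leaves 2 libraries per fraction. With preparation as a replicate block all 10 stayed lower, where 33% of all genes were lower, and no call among them changed; of the other genes named with a p, the block changed the calls of Nol8 and Btg2 only. Against a 2-fold change 10 microfibril and elastic fibre genes were called lower and 2 higher, and 6 chain and Gla enzymes lower and 3 higher. By that test 17.3% of all tested genes were lower and 3.56% higher. The 15 alternatives moved the log2 fold change of Bgn between -3.97 and -3.09, of Fmod between -4.38 and -3.49, of Ogn between -5.33 and -4.20, of Mgp between -2.10 and -1.28, and of Dcn between -3.97 and -3.84. The Vkorc1 call was lost in 6 alternatives that left out libraries and the Fbln7 call in 5. Calls of Omd, Adamts10, B3galt6, Dsel, Chst2 and B4galt1 were also lost in at least 1 of these. Calls of Mfap3, Ltbp3, Chsy3 and Dse were gained in at least 1, so the counts for these lists depend on the libraries used. Per-length levels in Six2-low with the longest transcript were 20.2 CPM per kilobase for Dcn, 95.1 for Bgn, 7.36 for Fmod, 21.2 for Postn, 76.0 for Mgp and 59.9 for Fbln1, since merged exons of these genes are longer than any 1 transcript. Depth limits Prelp, Ecm2, Csgalnact1, Kera, Epyc and Optc among the genes named, with 0 to 12 counts in each Six2-high library.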
